A study of Mus musculus with 6 samples.

Results

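Messenger RNA for 9 genes of steroid, prolactin and growth hormone signalling was followed in mouse kidney. The genes were taken by symbol from a table of raw read counts with 46095 rows. They are the oestrogen receptor gene Esr1, the glucocorticoid receptor gene Nr3c1, the mineralocorticoid receptor gene Nr3c2, the prolactin receptor gene Prlr, the growth hormone receptor gene Ghr, the transcription factor gene Stat5b and 3 genes downstream of STAT5, namely Socs2, Cish and Bcl6. All 9 were found, each on 1 row, and all 9 were among the 15367 genes with enough counts to test.

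All 6 kidney libraries were from mice of C57BL/6 background, 3 labelled DHT and 3 labelled control. DHT, or dihydrotestosterone, is an androgen that cannot be converted to oestradiol and is used to model PCOS, or polycystic ovary syndrome. Both groups carry the strain label PCOS mouse and are told apart only by treatment. The sources used here do not give sex, age, dose, duration of treatment, time of day at collection or pooling of animals. Nor do they say whether the libraries of a group came from separate animals, and p-values therefore describe the spread between these libraries, which may be technical. Libraries held 15054763 to 19331942 counts in total.

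Steroid receptors of this class sit in the cytoplasm or nucleus, bind their hormone and then act on genes as transcription factors. The glucocorticoid and mineralocorticoid receptors bind nearly the same DNA element and share the ligand cortisol or corticosterone, and in the distal nephron an enzyme that inactivates glucocorticoids reserves the mineralocorticoid receptor for aldosterone. Prolactin and growth hormone receptors have no kinase of their own: they carry JAK2, which phosphorylates STAT5A and STAT5B. STAT5 then turns on Cish and Socs2, whose proteins damp the receptor signal, while Bcl6 encodes a repressor that binds many of the same DNA sites as STAT5 and that STAT5 represses in liver.

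STAT dimers bind the letters TTCNNNGAA, which read the same on both strands. The sites below are shown because they are the STAT-type letters found just before a transcription start of these genes. Of the 9 genes, Nr3c1 and Socs2 were not searched. The other 7 genes were searched in 13 windows of 250 bases before a start in the table of RefSeq starts used here (GRCm38.p6). Of these windows, 4, from 3 genes, held the letters. Each site is printed 5′ to 3′ on the strand of its gene with 10 bases on either side, and the capitals mark the match.
Esr1, intron, chr10:4709960-4709988 on the + strand: ctggagtttcTTCTAGGAAtgctgattct
Prlr, intron, chr15:10223786-10223814 on the + strand: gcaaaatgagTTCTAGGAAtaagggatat
Bcl6, before the gene, chr16:23988952-23988980 on the - strand: agcaaattagTTCTCAGAAttccagaggc
Bcl6, intron, chr16:23981433-23981461 on the - strand: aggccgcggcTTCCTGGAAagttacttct
Bcl6, intron, chr16:23981387-23981415 on the - strand: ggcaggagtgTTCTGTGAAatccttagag
Bcl6, intron, chr16:23981353-23981381 on the - strand: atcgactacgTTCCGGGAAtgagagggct

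The Esr1 and Prlr sites carry the same 9 letters and lie 188 and 110 bases before internal starts of their genes. Bcl6 has 1 site before its outer start and 3 before an internal start, at 168, 122 and 88 bases. Of 32851 windows of the same length in the whole table, 7.02% held at least 1 such match and 9, or 0.0274%, held 3 or more, the internal Bcl6 window among them; the count of 3 was chosen after the matches were seen. The letters AGAACA, part of the element bound by glucocorticoid and mineralocorticoid receptors, were found on either strand in 1 Prlr window and in the internal Bcl6 window, where they overlap the middle STAT match, against 16.1% of all windows. The full element (AGAACA, 3 letters of any kind, TGTTCT) and the oestrogen receptor element (GGTCA, 3 letters of any kind, TGACC) were in none of the 13 windows and in 0.00913% and 0.0639% of all. A match is a description of the sequence and not a measured binding site.

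Among the 9 genes Ghr had the highest level and Esr1 the lowest. CPM are the counts of a gene per 1000000 counts of the scaled library size, and levels between genes are given as CPM per kilobase of annotated exon. In the 3 control libraries Ghr stood at 68.2 ± 32.3 (SD, n = 3), Prlr at 19.8 ± 7.55 and Nr3c1 at 13.5 ± 2.94 CPM per kilobase. Cish and Stat5b followed at 8.18 ± 0.640 and 7.87 ± 0.768, then Nr3c2 at 3.69 ± 0.492, Socs2 at 2.92 ± 0.557, Bcl6 at 2.62 ± 0.295 and Esr1 at 0.641 ± 0.220 CPM per kilobase. The control ranges of Prlr and Nr3c1 overlapped, as did those of Cish and Stat5b, of Nr3c2 and Socs2, and of Socs2 and Bcl6, so the order within those pairs is not set by these libraries. By the mean of the control and DHT levels, Ghr was in the 95.5th percentile of 14298 tested genes with a length and Esr1 in the 18.6th. Lengths from the longest transcript alone gave higher control values, such as 148 CPM per kilobase for Ghr and 6.57 for Socs2, and placed Nr3c2 (4.04) below Bcl6 (4.46).

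None of the 9 genes passed the test between DHT and control. With edgeR's quasi-likelihood test and a Benjamini-Hochberg adjusted p of 0.05 over all genes, 0 of 9 were called, where 2.84% of all tested genes were, 1.38% higher and 1.46% lower. At an unadjusted p under 0.05 there were 2, Esr1 and Socs2, against 23.9% of all genes. The same 2 were the genes whose libraries did not overlap between groups, Esr1 with all DHT libraries above all controls and Socs2 with all below, a state found in 29.8% of all genes (14.8% higher and 15% lower). The 2 of 9 thus stand close to the share among genes at large. DESeq2 called both, Esr1 higher and Socs2 lower, and 10.6% of all genes, and limma-voom called 0 of the 9 and 2.09% of all. Both were also called by edgeR with no low-count filter, with 3.35% of all genes, and at an adjusted p under 0.10, where 4.99% of all genes were higher and 4.95% lower. With 1 library left out in turn, edgeR called both without DHT replicate 2, a fit that called 7.76% of all genes, and 0 of the 9 in the other 5 fits. Those 5 called 0.12% of all genes without DHT replicate 1, 0% without DHT replicate 3, and 2.32%, 0.0446% and 0.571% without control replicates 1, 2 and 3. With the replicate number as a block 0 of the 9 and 0.553% of all genes were called. Log2 fold changes of the 9 had a median of -0.07 against 0.00304 over all tested genes, with 3 above 0 and 6 below.

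**Figure D1:**
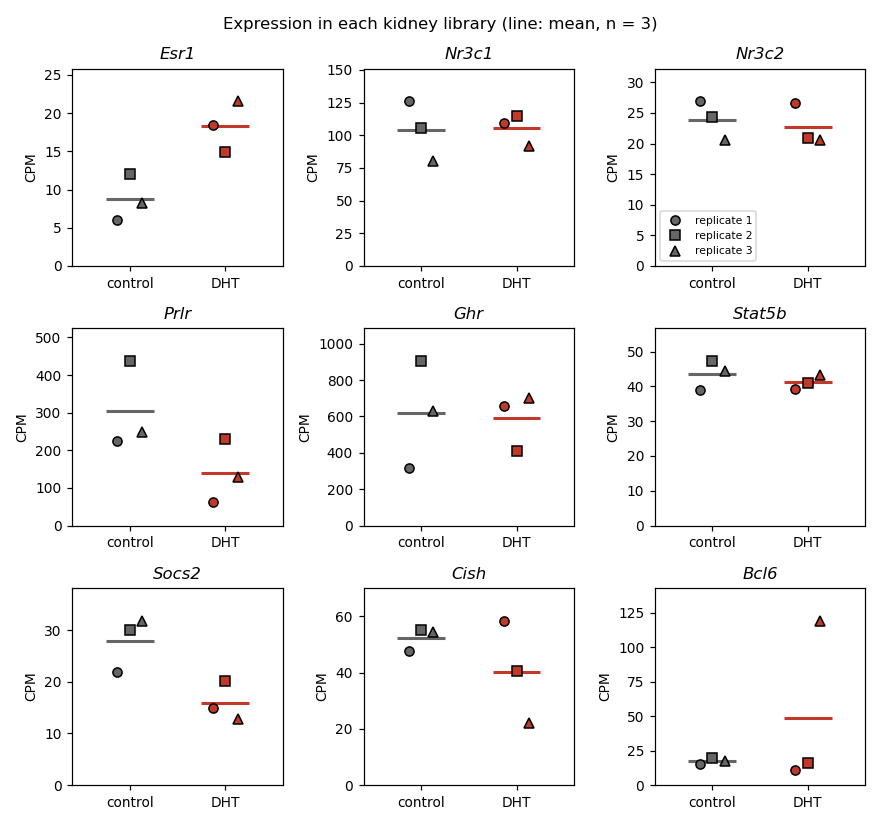
CPM of the 9 genes in each kidney library, with controls in grey and DHT in red, the symbol giving the replicate and the line the mean of 3. Esr1 and Socs2 have no overlap between groups, and Bcl6 is high in DHT replicate 3 alone, at 119 CPM.

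Esr1, which encodes oestrogen receptor alpha, lies on chromosome 10 from 4611593 to 5005614 (GRCm38). It was at 6.03, 12 and 8.26 CPM in control replicates 1, 2 and 3 and at 18.5, 14.9 and 21.5 CPM in DHT replicates 1, 2 and 3. All DHT values were above all control values, and the nearest pair was DHT replicate 2 and control replicate 2. The ratio of groups was 2.09, a log2 fold change of 1.06 ± 0.26 (SE) with a 95% interval of 0.47 to 1.65, and edgeR's adjusted p was 0.0627. The counts behind it were 98 to 363 per library. Without DHT replicate 2 the log2 fold change of Esr1 was 1.18 and its edgeR adjusted p 0.0388. Over the other 5 libraries left out in turn the edgeR adjusted p of Esr1 stayed above 0.05, with a highest value of 0.202.

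Nr3c1, on chromosome 18 from 39410545 to 39519421, encodes the glucocorticoid receptor. Its control values were 126, 106 and 80.6 CPM and its DHT values 109, 115 and 92.1 CPM. The DHT range lay inside the control range. The log2 fold change was 0.02 ± 0.17, with a 95% interval of -0.37 to 0.41 (edgeR adjusted p = 0.956).

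Nr3c2, on chromosome 8 from 76899442 to 77245012, encodes the mineralocorticoid receptor. It was at 26.9, 24.3 and 20.5 CPM in control and 26.6, 20.9 and 20.5 CPM in DHT, which overlap almost fully. The log2 fold change was -0.07 ± 0.16 with an interval of -0.43 to 0.28 (edgeR adjusted p = 0.802). A length of 247 bases, or 3.82% of its exons, is shared with Gm10649 on the opposite strand, which had 12 counts in all 6 libraries together. For Nr3c1 and Nr3c2 the intervals exclude a 2-fold change in either direction, whereas for Esr1 a 2-fold increase lies inside.

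Prlr, on chromosome 15 from 10177238 to 10349180, encodes the prolactin receptor. Control libraries held 226, 437 and 249 CPM and DHT libraries 62.2, 229 and 129 CPM. DHT replicate 2 reached the lowest control by a margin of a few CPM, and the other DHT libraries lay below all controls. Group means were 140 ± 83.8 in DHT and 304 ± 116 CPM in control (SD, n = 3 each), a log2 fold change of -1.12 ± 0.49 with an interval of -2.29 to 0.05 (edgeR adjusted p = 0.224). The fold change was below 0 with every library left out in turn, from -1.68 without DHT replicate 2 to -0.76 without DHT replicate 1 or control replicate 2, and edgeR's adjusted p then ranged from 0.0828 to 0.466. In DHT the Prlr libraries differed by 3.68-fold between highest and lowest, a spread on the log2 scale in the 96th percentile of all tested genes. A length of 203 bases, or 1.32% of its exons, is shared with Gm21973 on the same strand, a gene without a row in the count table.

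Ghr, on chromosome 15 from 3317760 to 3583492, encodes the growth hormone receptor, whose message also gives the soluble growth hormone binding protein. It was at 319, 904 and 629 CPM in control and 656, 412 and 703 CPM in DHT. All DHT values lay between the lowest and the highest control. The log2 fold change was -0.07 ± 0.37, and the interval of -0.93 to 0.80 is wider than that of the steroid receptors Nr3c1 and Nr3c2. Within the controls Ghr differed by 2.83-fold, a spread in the 94.9th percentile. Counts per gene do not separate the long and short forms of Prlr, or the receptor and binding-protein forms of Ghr.

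The 4 markers listed for the straight part of the proximal tubule did not move together across the libraries, and 0 of 4 were called. Their summed level was 2740, 1074 and 2727 CPM in DHT replicates 1, 2 and 3 and 817, 1606 and 1357 CPM in control replicates 1, 2 and 3, and Atp11a made most of the differences in that sum. Atp11a was at 2037, 295 and 1834 CPM in DHT and 186, 576 and 521 CPM in control. Slc22a13 was at 38.6, 51.2 and 70.4 CPM in DHT and 30.1, 154 and 141 CPM in control. Slc5a1 stayed between 81.4 and 115 CPM and Slc3a1 between 520 and 760 CPM over the 6 libraries. All 4 were lowest in control replicate 1, the control library with the least Ghr, Prlr and Esr1. The 6 general proximal tubule markers summed to 8101 to 10720 CPM in DHT and 8629 to 10769 in control, none of them at 0. The part of these markers in the receptor values was not tested. In a bulk sample fewer cells of a type and less RNA per cell cannot be told apart.

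**Figure D2:**
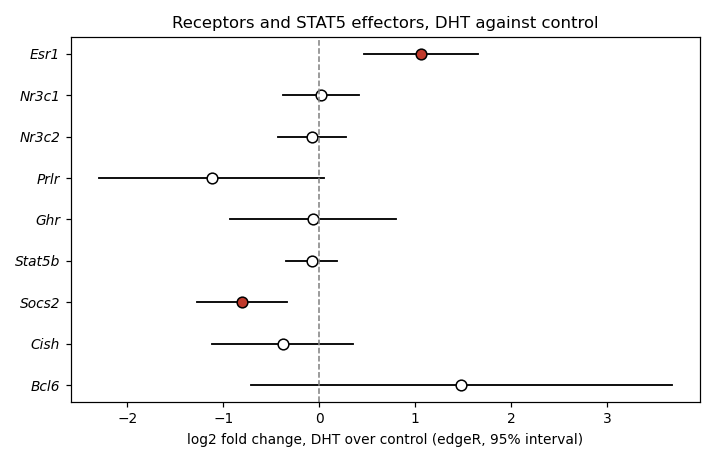
Log2 fold change of each gene, DHT over control, as a point with the 95% interval of edgeR's fit, filled where the 3 DHT and 3 control libraries do not overlap. Only the Esr1 and Socs2 intervals leave out 0, while the Bcl6 interval runs from -0.71 to 3.67.

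Stat5b was the most even of the 9 genes among DHT libraries. It lies on chromosome 11 from 100780731 to 100850724 and encodes the STAT5 protein most tied to growth hormone. Control values were 38.9, 47.3 and 44.5 CPM and DHT values 39.3, 41.0 and 43.3 CPM, so the groups overlap. The log2 fold change was -0.08 ± 0.12 with an interval of -0.34 to 0.18 (edgeR adjusted p = 0.707). Its neighbour Stat5a is 90.9% identical over 2332 bases, or 44.7% of the Stat5b transcript, and the treatment of reads that fit both is not stated in those sources. Stat5a was at 17.7, 31.4 and 24.9 CPM in control and 15.5, 16.5 and 18.9 CPM in DHT, a log2 fold change of -0.54 ± 0.21 that did not pass (edgeR adjusted p = 0.16).

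Socs2, on chromosome 10 from 95385362 to 95417180, encodes a suppressor of cytokine signalling that restrains growth hormone action. It was at 21.8, 29.9 and 31.8 CPM in control and 14.8, 20.2 and 12.8 CPM in DHT. Every DHT library lay below every control, with DHT replicate 2 and control replicate 1 closest. The ratio of groups was 0.571, a log2 fold change of -0.81 ± 0.21 with an interval of -1.28 to -0.34, and edgeR's adjusted p was 0.0689. Without DHT replicate 2 the log2 fold change of Socs2 was -1.02 and its adjusted p 0.0227, and over the other 5 libraries left out in turn its edgeR adjusted p stayed above 0.05, with a highest value of 0.205. A stretch of 452 bases is 99.6% identical to the pseudogene Gm9847 and 95.6% to Gm8000, which held 1 and 11 counts over all libraries against 2349 for Socs2.

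Cish, on chromosome 9 from 107296026 to 107302784, encodes another STAT5-induced inhibitor of the same family. Control libraries were close together at 47.8, 55.2 and 54.5 CPM. DHT libraries spread from 58.5 in replicate 1 through 40.5 in replicate 2 to 21.9 CPM in replicate 3, so that 1 lay above all controls and the others below. The log2 fold change was -0.38 ± 0.31 (edgeR adjusted p = 0.491), and it was -0.08 without DHT replicate 3 and -0.75 without DHT replicate 1. The spread of Cish was in the 26.3rd percentile of genes in control and the 91.5th in DHT. Of its exonic bases, 11.5% are shared with Gm17040 and Gm17041 on the opposite strand, of which Gm17040 had 63 counts over the 6 libraries against 4890 for Cish.

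Bcl6, on chromosome 16 from 23965052 to 23988852, was set by 1 library. It was at 15.6, 19.5 and 17.6 CPM in control, 11.1 and 16.4 CPM in DHT replicates 1 and 2, and 119 CPM, or 2013 counts, in DHT replicate 3. That library exceeded the highest of the other 5 by 6.12-fold. Of 14212 genes averaging 1 CPM or more, 4 stood at least 4-fold above every other library in DHT replicate 3, and Bcl6 ranked second of them. The same count was 2 in DHT replicate 1, 14 in DHT replicate 2, and 2, 0 and 20 in control replicates 1, 2 and 3. Over all libraries the log2 fold change was 1.48 ± 0.90 (edgeR adjusted p = 0.367), and without DHT replicate 3 it was -0.35 ± 0.21 (edgeR adjusted p = 0.422). Its spread was in the 99.8th percentile of genes in DHT and the 40.7th in control. The same library had the least Cish and Socs2 of all 6, at 21.9 and 12.8 CPM. Among the growth hormone axis and other STAT5 target genes described below, some were likewise lowest there and others highest. Pim1, Cdkn1a and Igfbp5 were lowest, at 4.21, 4.33 and 431 CPM. Pim3, Bcl2l1 and Igfbp4 were highest, at 289, 148 and 1140 CPM. A link of any of these values to Bcl6 was not tested.

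**Figure D3:**
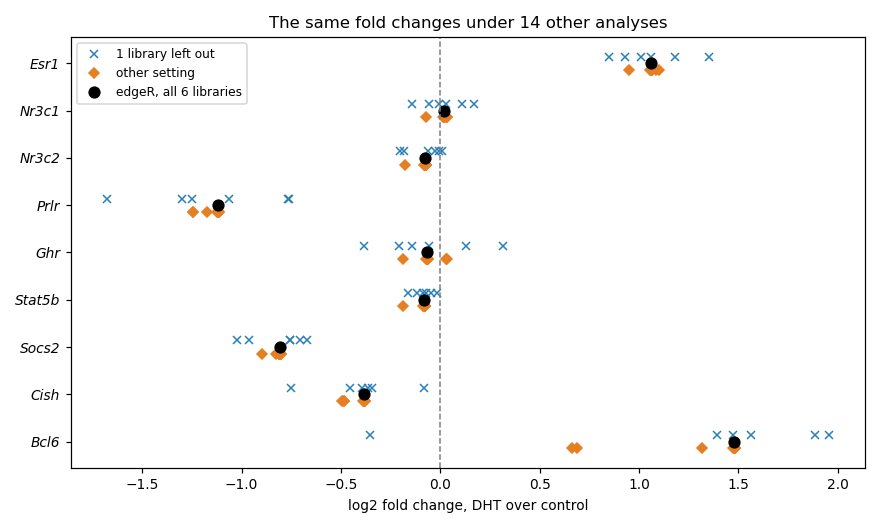
Log2 fold change of the 9 genes in the edgeR fit of all 6 libraries (black), with 1 library left out (blue) and under 8 other settings (orange). Esr1 stays between 0.85 and 1.35 and Socs2 between -1.02 and -0.67, while the Bcl6 point at -0.35 is the fit without DHT replicate 3.

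The genes with the most similar profile over the 6 libraries were then listed for Esr1, Prlr, Socs2 and Bcl6, a choice made after their values were seen. Similarity was the root-mean-square difference of log2 values centred on each gene, where smaller is closer. The closest to Esr1 was the monocarboxylate transporter family gene Slc16a9 (0.0963), followed by 4930452B06Rik (0.138) and Ugdh (0.144), which makes the glucuronic acid donor. Slc16a9 passed the test, at 95.7, 155 and 112 CPM in control and 252, 196 and 261 CPM in DHT (log2 fold change 0.97 ± 0.20, edgeR adjusted p = 0.0440). Closest to Prlr were Fgb (0.167), a fibrinogen chain, Hao2 (0.210), a peroxisomal hydroxyacid oxidase, and Clic6 (0.245), and none of the 3 was called. Closest to Socs2 were the receptor phosphatase gene Ptpru (0.0669), Mir17hg (0.0763) and the homeobox gene Hoxb3 (0.0809). Hoxb3 was called, with a log2 fold change of -0.94 ± 0.19 (edgeR adjusted p = 0.0433). For Bcl6 the closest were Errfi1 (0.377), an inhibitor of the EGF receptor, Rps15-ps3 (0.409) and Rnf181 (0.545). All 3 were likewise high in DHT replicate 3 alone, Errfi1 at 23.5 CPM there against 2.82 to 5.41 CPM in the others. The measure is not scaled, so a gene is close only where both the direction and the size of its differences are alike. The group differences and calls of the listed genes, and the rise in DHT replicate 3, thus follow from how they were picked. They add no separate evidence about Esr1, Prlr, Socs2 or Bcl6.

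The genes around these receptors were taken from 7 lists that hold 100 tested genes in all. Of these 100, 2 were called, both higher in DHT, which is 2% against the 2.84% of all genes. Other steroid and oestrogen-related receptors held 0 calls of 8 tested, also 0 at an unadjusted p under 0.05, against 23.9% of all genes. Their median log2 fold change was 0.01. Esrrb, an orphan receptor related to the oestrogen receptors, had the smallest p of the list (log2 fold change -0.62 ± 0.31, edgeR adjusted p = 0.266), with 83.5 CPM in control replicate 3 against 31.2 to 41.4 CPM elsewhere. In that library loop of Henle markers summed to 10943 CPM against 3872 to 6323 in the others (4 tested, 0 called). Principal cell markers summed to 906 CPM there against 443 to 612 CPM (5 tested, 0 called). Of these, the loop marker Cldn16 and the principal cell marker Scnn1g were not highest there, at 11.3 and 86.0 CPM. The other libraries held 10.9 to 13.3 CPM of Cldn16 and 72.7 to 99.3 CPM of Scnn1g. The part of these markers in the Esrrb value was not tested. Esr2, the gene of oestrogen receptor beta, had 21 counts over the 6 libraries and was not tested.

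Chaperones and co-regulators of steroid receptors held 0 calls of 18, with 6 at an unadjusted p under 0.05, against 23.9% of all genes. Hspa8, a constitutive HSP70 chaperone, was at 701, 693 and 923 CPM in control and 1525, 943 and 1538 CPM in DHT (log2 fold change 0.79 ± 0.23, edgeR adjusted p = 0.0899). Its groups did not overlap, a state found in 29.8% of all genes, and DHT replicate 2 and control replicate 3 were the nearest. DESeq2 called it (adjusted p = 0.00674). The co-chaperone Dnaja1 and the HSP90 partner Ptges3 had log2 fold changes of 0.50 ± 0.17 and 0.32 ± 0.12, and the coactivator Crebbp one of -0.36 ± 0.13, none of them called.

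JAK-STAT signal transducers held 0 calls of 19, with 5 at an unadjusted p under 0.05, against 23.9% of all genes. Jak2, the kinase carried by both hormone receptors, was at 46.2, 62.0 and 45.4 CPM in control and 47.6, 47.2 and 42.0 CPM in DHT (log2 fold change -0.17 ± 0.14, edgeR adjusted p = 0.515). Ptpn1, a phosphatase that acts on JAK2, was at 41.0, 37.8 and 43.4 CPM in control and 54.9, 54.7 and 64.3 CPM in DHT without overlap (0.51 ± 0.12, edgeR adjusted p = 0.0557). Stat2, of interferon signalling, had a log2 fold change of -0.62 ± 0.16, Sh2b1, an adaptor of JAK2, one of -0.36 ± 0.10 and Tyk2, another JAK kinase, one of -0.34 ± 0.12, with edgeR adjusted p of 0.0681, 0.0845 and 0.127. These 3 also had no overlap between groups, a state found in 29.8% of all genes. DESeq2 called Stat2, Ptpn1 and Sh2b1, and limma-voom none of them.

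The other SOCS and PIAS inhibitors held 0 calls of 10 and 0 at an unadjusted p under 0.05, against 23.9% of all genes. Socs3 was at 11.1 CPM in DHT replicate 2 and 0.986 to 2.67 CPM in the other 5 libraries. Macrophage markers summed to 239 CPM in that library against 78.4 to 178 CPM in the others, with 6 markers tested and 0 called. Of these, Csf1r was not highest there, at 60.7 CPM against 26.4 to 90.7 CPM. Red blood cell markers summed to 70.3 CPM against 2.89 to 37.5 CPM. Endothelial, podocyte, intercalated cell and lymphocyte markers also had their highest sums there, at 698, 790, 441 and 11.3 CPM, though not every marker of those lists did. Of these lists only the endothelial one held a call, 1 of 6 tested, where 2.84% of all genes were called. It was Ehd3, at 38.8, 40.2 and 40.9 CPM in control and 57.7, 72.3 and 72.5 CPM in DHT. The part of these markers in the Socs3 value was not tested. Other class I cytokine receptors, the family of Prlr and Ghr, held 0 calls of 13 and 0 at an unadjusted p under 0.05. Il2rg and Csf3r, receptors of blood cells, had their highest values in DHT replicate 2 as well, at 19.1 and 5.64 CPM.

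The growth hormone axis and other STAT5 targets held 0 calls of 14, with 2 at an unadjusted p under 0.05, against 23.9% of all genes. Their median log2 fold change was -0.22. Igfals, which encodes the subunit that stabilises circulating IGF complexes, was at 18.0, 35.6 and 33.6 CPM in control and 7.79, 15 and 10.6 CPM in DHT. Its groups did not overlap, a state found in 29.8% of all genes. The log2 fold change of Igfals was -1.39 ± 0.32 (edgeR adjusted p = 0.0606, DESeq2 adjusted p = 0.000619). Igf1, the main growth hormone target in liver, was at 5.35, 15.4 and 14.6 CPM in control and 4.71, 11.0 and 6.23 CPM in DHT (-0.69 ± 0.45, edgeR adjusted p = 0.382), with overlap. Igfbp4, an IGF binding protein, had no overlap and a log2 fold change of 0.58 ± 0.22 (edgeR adjusted p = 0.165). Igfbp2, another IGF binding protein, was at 13 CPM in control replicate 3 and at 0.0615 to 1.44 CPM in the other 5 libraries (log2 fold change -2.22 ± 1.58). Besides the loop of Henle and principal cell markers given above, mesenchymal markers summed to 251 CPM in that library against 111 to 173 CPM in the others (5 tested, 0 called). Of these, Pdgfrb was not highest there, at 43.2 CPM against 49.4 CPM in control replicate 1. Adrenal cortex markers, of which 2 of 4 were at 0 throughout, summed to 8.81 against 0.475 to 2.80 CPM. Cyp11a1 made most of that difference, at 6.33 CPM against 0 to 0.311 CPM in the others. Star was at 2.47 CPM against 0.475 to 2.49 CPM. The part of these markers in the Igfbp2 value was not tested. The hormone genes Gh and Prl had 0 counts in all libraries.

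Genes that respond to glucocorticoids or mineralocorticoids held the 2 calls, out of 20 tested, where 2.84% of all genes were called. Tsc22d3, which encodes GILZ, a glucocorticoid-induced leucine zipper protein, rose from 40.1, 27.8 and 29.0 CPM in control to 67.4, 51.1 and 78.1 CPM in DHT (log2 fold change 1.02 ± 0.20, edgeR adjusted p = 0.0388). Usp2, a ubiquitin protease gene with a daily rhythm in many tissues, rose from 96.0, 68.1 and 65.5 CPM to 197, 126 and 212 CPM (1.22 ± 0.23, edgeR adjusted p = 0.0385). Both calls were lost without DHT replicate 1 or 3 or control replicate 2 or 3, where the log2 fold change was 0.88 to 1.01 for Tsc22d3 and 1.08 to 1.14 for Usp2. With the replicate number as a block both were lost as well, at edgeR adjusted p of 0.0671 and 0.0669. The other 18 genes of the list were not called. Fkbp5, a chaperone gene induced by the glucocorticoid receptor, was at 0.817, 1.25 and 0.712 CPM in DHT and 0.369, 4.62 and 0.297 CPM in control. Control replicate 2, where it was highest, had a summed level of fat cell markers of 7.21 CPM against 0 to 0.626 CPM in the others, with 0 of 4 tested, and their part in the Fkbp5 value was not tested. Sgk1, a kinase gene induced by aldosterone, had a log2 fold change of -0.09 ± 0.25. Hsd11b2, the enzyme gene that shields the mineralocorticoid receptor, had one of 0.11 ± 0.18. The potassium channel gene Kcnj1 had one of -0.35 ± 0.15 (edgeR adjusted p = 0.208), with no overlap between groups, as in 29.8% of all genes. Errfi1, the gene high in DHT replicate 3 with Bcl6, is also on this list (1.33 ± 0.88, edgeR adjusted p = 0.404). The list had 10 log2 fold changes above 0 and 10 below.

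**Figure D4:**
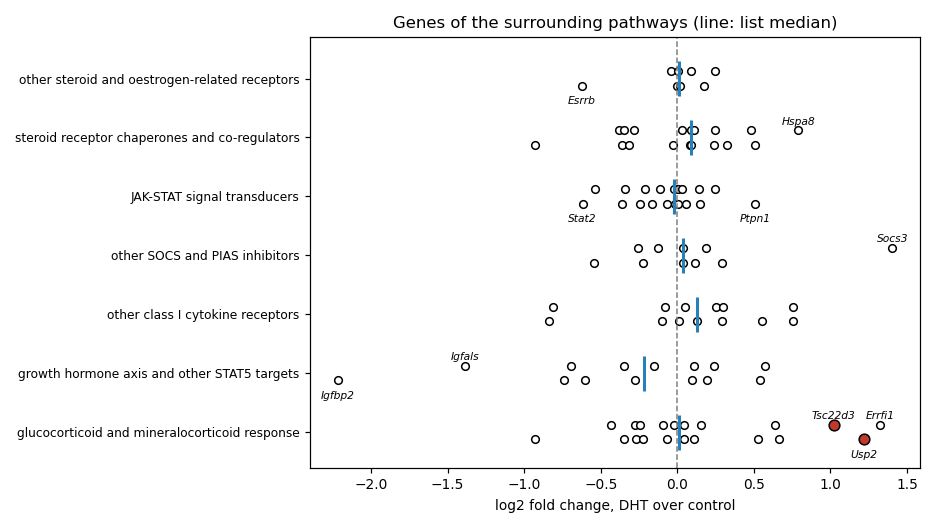
Log2 fold change, DHT over control, of the tested genes in each of the 7 lists, with the list median as a blue line and called genes in red. The red points are Tsc22d3 and Usp2 among the glucocorticoid and mineralocorticoid response genes, and Igfals lies at -1.39 without being called.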

How the data were processed

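The submitters' processing notes list HISAT2 2.0 and mm10 as tool and build, and the sources used here name no counting tool, annotation or strand setting. The table the authors deposited holds raw counts per gene symbol for 6 libraries, matched to samples by title. Genes were kept by filterByExpr (minimum count 10, minimum total 15), scaled by TMM and tested with edgeR 4.0.16 (R 4.3.3; robust quasi-likelihood, group as the single term, Benjamini-Hochberg over 15367 genes, threshold 0.05). The SE is what the F statistic implies. CPM use TMM-scaled library sizes. The test was run on simulated data first. Exon lengths and positions come from GENCODE M21 (GRCm38, the assembly of mm10), similar transcripts from BLAST 2.17.0+, and sequences from RefSeq promoter windows (GRCm38.p6). Named genes are the 9 genes, called list genes and up to 4 of each list by smallest p; others named were chosen after their values were seen. The genes, lists and tests were chosen with earlier results of these data known. Alternatives included DESeq2 1.42.0 and limma-voom (limma 3.58.1).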

Additional observations from a re-analysis of the deposited data

How the results depend on the processing

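With 0 of the 9 genes called in either direction by edgeR, 1 higher (Esr1) and 1 lower (Socs2) were called with DESeq2, with no low-count filter, without DHT replicate 2 and at a threshold of 0.10. With 1 library left out in turn, 0 to 1 were called higher and 0 to 1 lower, and the count over all genes, 437 with all libraries, ran from 0 (without DHT replicate 3, 2763 at an unadjusted p under 0.05) to 1224 (without DHT replicate 2). That count was 852 with no low-count filter, 1634 with DESeq2, 4 at a threshold of 0.01 and 1528 at 0.10. Called list genes, 2 with all libraries, were 5 with no low-count filter, 7 with DESeq2 and 0 to 8 with 1 library left out. With the replicate number as a block, 85 genes, 1 list gene (Igfals, adjusted p = 0.0388) and 0 of the 9 were called. Same-numbered libraries correlated at 0.0729, -0.153 and 0.0399 in their deviations, so the numbers are not taken to pair them. Log2 fold changes turned direction for 4 of the 9 genes, none of them called. Nr3c1 was at -0.0700 with total counts and ran from -0.14 to 0.17 with 1 library left out, below 0 without DHT replicate 1 or 2 or control replicate 3. Nr3c2 ran from -0.20 to 0.011, the latter without control replicate 1. Ghr was at 0.032 with limma-voom, 0.028 with the block and ran from -0.38 to 0.31, above 0 without DHT replicate 2 or control replicate 2. Bcl6 ran from -0.35 without DHT replicate 3 to 1.96 without DHT replicate 1. Total counts moved the median of all genes to -0.10. Levels per kilobase depend on the length used. The cause of these shifts was not tested. Each group has 3 libraries. The smallest count of the 9 genes in a library was 98, while some list genes, such as Igfbp2 and Fkbp5, had far fewer.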
